A study of Mus musculus with 2 samples.

Results

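IgD-high B cells of the mouse colon were described by their transcripts, counted cell by cell. Members were chosen by measured values. A cell was taken as IgD-high when it was in the authors' filtered cell table and held at least 3 UMIs of Ighd (unique molecular identifiers, each standing for 1 captured transcript), more Ighm plus Ighd than Igha plus Ighg UMIs, and under 20% of its UMIs from immunoglobulin and Jchain genes. This gave 1099 of 7982 cells. They were 655 of 4692 cells in the day 14 library (13.96%, 95% exact Clopper-Pearson interval 12.98 to 14.98) and 444 of 3290 cells in the day 0 library (13.50%, 12.35 to 14.71).

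Both libraries were made with the 10x Chromium 3′ kit, version 2, from B cells sorted out of the colonic lamina propria, the connective tissue under the lining of the gut. All mice were female C57BL/6J. The day 14 mice had drunk 2% dextran sulfate sodium (DSS), a polymer that injures the colonic epithelium and causes colitis, for 7 days and then recovered for 7 days. The day 0 mice were untreated, per the protocols and the series design, although the treatment tag names DSS for both samples. Each group is 1 library, the sources used here do not state how many mice it came from, and the labels name no marker of the sort. No difference between the days can therefore be tested, and every interval below covers counting error only.

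Mature naive B cells carry IgM and IgD together, made by alternative splicing of 1 long heavy chain transcript, and lose IgD when they switch class or become plasma cells. Follicular B cells are the recirculating majority of these cells. They enter lymphoid follicles through CXCR5 and the T cell zone through CCR7, and carry CD23 (encoded by Fcer2a), the low-affinity IgE receptor. In the colon such cells lie mainly in isolated lymphoid follicles and patches, while IgA plasma cells fill the lamina propria.

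The values that chose the cells are given as a description. Ighd (chromosome 12, 113406604 to 113416324, mm10) averaged 3.65 UMIs per IgD-high cell at day 14 and 3.72 at day 0, with highest values of 9 and 10 UMIs. Just inside the limit, 389 of the day 14 members and 267 of the day 0 members held exactly 3 Ighd UMIs, and just outside it 832 cells at day 14 and 536 cells at day 0 held exactly 2. Of all cells with at least 3 Ighd UMIs, 1 in each library failed the class comparison and none failed the immunoglobulin limit. Ighm, the IgM heavy chain, had a UMI in 613 of the 655 day 14 and 422 of the 444 day 0 members. Igha, the IgA heavy chain, had a UMI in 14.7% of day 14 and 34.0% of day 0 members, and never more than 2 UMIs in a day 14 member and 5 in a day 0 member.

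The limit of 3 UMIs follows the depth of a cell. IgD-high cells had a median of 2532 UMIs at day 14 and 2508 at day 0, against 2156 and 2242 UMIs in the cells of the same libraries with 0 Ighd UMIs. When every cell was thinned to 1000 UMIs before the rule was applied, 2.10% of day 14 and 1.90% of day 0 cells met it. At least 1 Ighd UMI was found in 61.5% of day 14 cells and 59.6% of day 0 cells, so most cells outside the set also carried the transcript. In barcodes that the authors' table leaves out and that carry T cell receptor complex transcripts, which should lack Ighd, it was found in 3 of 46 at day 14 (6.52%, 1.37 to 17.9) and 6 of 56 at day 0 (10.7%, 4.03 to 21.9), at median depths of 2991 and 3352 UMIs. Only 17 barcodes occurred in both libraries, 3 of them IgD-high in at least 1.

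The cells that stand against the set are not all of another kind. Of the 1807 day 14 and 1330 day 0 cells with 0 Ighd UMIs, 1453 and 1064 held an Ighm UMI, while 152 at day 14 and 197 at day 0 held more switched than Ighm UMIs. Only 26 and 24 of them had 20% or more of their UMIs from immunoglobulin genes. A narrower group, called here 0 Ighd cells with IgM, had 0 Ighd UMIs, more Ighm than Igha plus Ighg UMIs and under 20% immunoglobulin UMIs, and held 1377 day 14 and 955 day 0 cells.

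The set was checked against the transcripts that mark naive follicular cells. Ms4a1, which encodes CD20, had a UMI in 83.5% of IgD-high cells at day 14 and 83.1% at day 0, against 10.9% and 3.57% of the left-out T cell barcodes. Fcer2a had one in 36.6% of IgD-high cells at day 14 and 57.9% at day 0, against 6.52% and 3.57% of those barcodes. Ccr7, which T cells also use, had one in 76.3% of IgD-high cells at day 14 and 85.1% at day 0, against 54.3% and 39.3% of those barcodes. Ms4a1 and Fcer2a were thus detected well above their share in the T cell barcodes, but the markers did not all separate the set from the cells with 0 Ighd UMIs, as the ratios below show.

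Markers of T cells, myeloid cells, neutrophils and epithelium were sparse in the set, while most plasma cell and germinal center markers were detected. Of 14 T cell markers, 9 at day 14 and 7 at day 0 had no UMI, with Cd3e, Cd3g and Cd4 at 0 in both. Of 15 myeloid markers, 10 at day 14 and 10 at day 0 had no UMI, not all of them the same, with Lyz2 and Csf1r at 0 in both. Cst3 and Tyrobp made up most of the summed level of 197 CPM (UMIs scaled to a total of 1000000) at day 14 and 258 CPM at day 0. Of 12 neutrophil markers, 9 at day 14 and 11 at day 0 were at 0, and the summed levels of the epithelial list were 17.4 CPM at day 14 and 14.6 CPM at day 0. The plasma cell list summed to 1456 CPM at day 14 and 1437 CPM at day 0, mostly from Mzb1, Sec61b and Hsp90b1, which B cells also use. Of its 19 markers, 1 at day 14 and 1 at day 0 had no UMI, Tnfrsf17 in both. Xbp1 had 112 UMIs at day 14 and 79 at day 0, and Sdc1 16 and 27. Of 17 germinal center markers, 1 at day 14 and 5 at day 0 had no UMI. CPM here leaves immunoglobulin and mitochondrially encoded genes out of the total. Of the remaining UMIs the set held 1893681 at day 14 and 1230834 at day 0.

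Within IgD-high cells the day 14 library stood higher in many interferon-response genes and lower in Fcer2a. A gene was counted from 100 UMIs over the pair of libraries, which held for 3264 genes, and the words higher and lower stand for a ratio past 1.5-fold, a limit of size and not a test. At day 14, 32 of these genes (0.98%) were higher and 111 (3.4%) were lower, with a median log2 ratio of -0.08. The split follows the scaling. Scaling with TMM or median-of-ratios factors adds 0.11 or 0.10 to every log2 ratio and gives 59 higher and 60 lower, or 56 higher and 61 lower.

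Serpina3g, a serine protease inhibitor induced by interferon-gamma, showed the largest ratio of the genes with the highest lower bounds, of which 11 are described here. Of the 655 day 14 cells, 117 held it, with 177 UMIs in all, against 16 UMIs in 16 of the 444 day 0 cells. That is 93.5 CPM (80.2 to 108) at day 14 and 13.0 CPM (7.43 to 21.1) at day 0, giving a ratio of 7.19 (4.31 to 12.9). With every cell thinned to 1000 UMIs it was found in 7.94% of day 14 cells (5.99 to 10.3) and 1.13% of day 0 cells (0.367 to 2.61), so the intervals lay apart. The left-out T cell barcodes held it in 0 of 46 and 0 of 56.

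Zbp1, a sensor of Z-form nucleic acids, had 110 UMIs at day 14 and 15 at day 0, giving a ratio of 4.77 (2.77 to 8.81). Ifi47, an interferon-inducible GTPase, had 83 UMIs at day 14 and 17 at day 0, giving a ratio of 3.17 (1.87 to 5.71). Irf1, an interferon-inducible transcription factor, had 152 UMIs at day 14 and 51 at day 0, giving a ratio of 1.94 (1.40 to 2.72). These genes and Serpina3g belong to the interferon lists.

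The other 7 genes have varied roles. Ptpn22, a lymphoid phosphatase that damps antigen receptor signals, had a ratio of 2.31 (1.47 to 3.76), and Ptpn1, a phosphatase that acts on JAK kinases, 1.72 (1.36 to 2.20). Chka, which starts phosphatidylcholine synthesis, stood at 2.05 (1.30 to 3.32), Tifa, an adaptor of NF-kB signalling, at 1.87 (1.29 to 2.76), and Pkib, an inhibitor of protein kinase A, at 1.80 (1.42 to 2.31). Lgmn, a lysosomal endopeptidase, had a ratio of 1.47 (1.24 to 1.75), just under 1.5-fold. Hspa1a, the inducible HSP70 chaperone, rested on few cells. Its 153 day 14 UMIs lay in 20 cells and its 25 day 0 UMIs in 13, giving a ratio of 3.98 (2.59 to 6.34), but 135 of the day 14 UMIs lay in 5 cells, and without the 5 cells with most UMIs of each library the ratio was 1.46 (0.605 to 3.89).

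**Figure D1:**
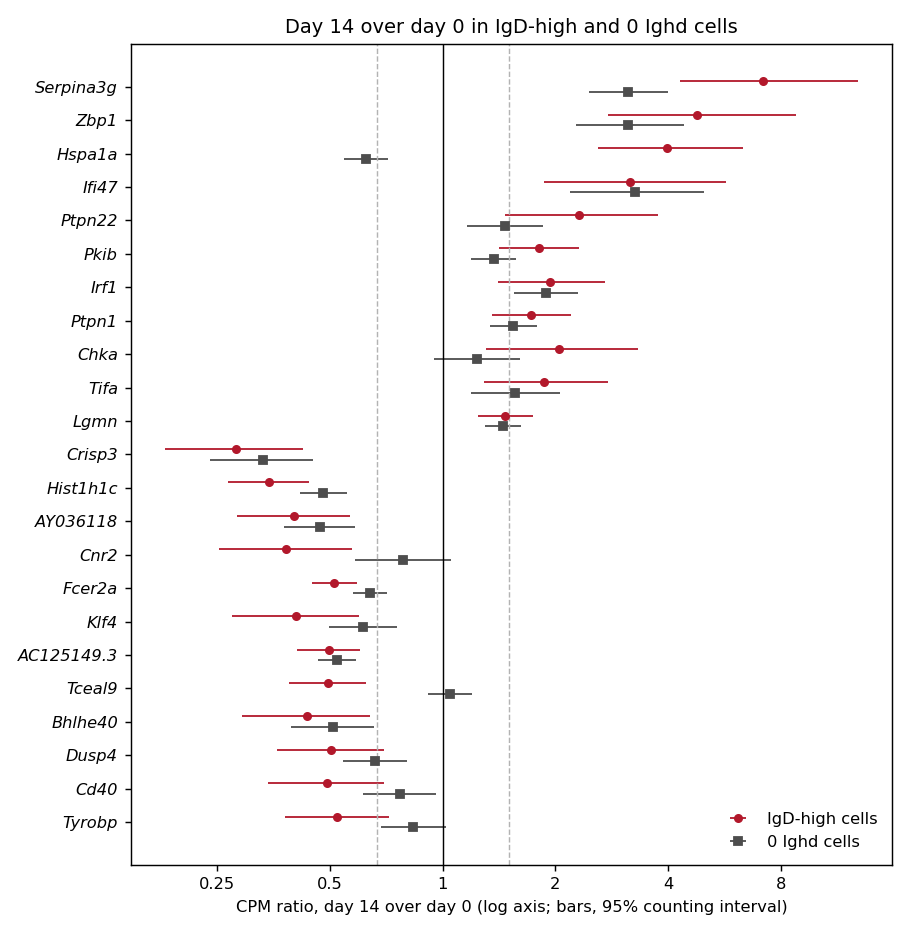
CPM ratio of day 14 over day 0 (log axis) for 23 genes in IgD-high cells (circles) and in cells with 0 Ighd UMIs (squares), with 95% counting intervals and dashed lines at 1.5-fold either way. Serpina3g stands at 7.19 in IgD-high and 3.13 in 0 Ighd cells, and Hspa1a lies on opposite sides of 1 in the 2 sets.

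Many of these genes also differed between the days in the cells with 0 Ighd UMIs, which share the libraries but no cell with the set. There, day 14 was higher for 62 (1.1%) and lower for 188 (3.32%) of 5661 genes. Of the 10 described genes past 1.5-fold higher, 6 were also past 1.5-fold higher in 0 Ighd cells, and of the 12 lower genes 8 were past 1.5-fold lower. Intervals of the 2 cell sets lay apart for Serpina3g (3.13 in 0 Ighd cells, 2.46 to 4.01), Hspa1a (0.624, 0.546 to 0.712), Cnr2 (0.783, 0.584 to 1.05) and Tceal9 (1.05, 0.913 to 1.20). The genes were named for extreme ratios in IgD-high cells, which favours such gaps, and their share over all genes was not counted. The differences between the sets were not tested.

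Gene lists were read through their members with 20 UMIs or more over both libraries. Of 25 such interferon-gamma associated genes, 14 were higher and 1 was lower at day 14, beside 5.34% higher and 10.6% lower of the 7290 genes measured that way. Their median log2 ratio was 0.64, against -0.09 for all those genes, and their summed level was 1788 CPM at day 14 and 1240 CPM at day 0, giving a ratio of 1.44 (1.36 to 1.53). Tgtp2, an interferon-inducible GTPase, had 54 UMIs at day 14 and 1 at day 0, giving a ratio of 35.1 with a wide interval of 6.04 to 1412. Tgtp2 reached 20 UMIs only through day 14, where it stood high. Psmb8, an immunoproteasome subunit and the most abundant member named here, had 681 UMIs at day 14 and 365 at day 0, giving a ratio of 1.21 (1.07 to 1.38). Ciita, which switches on MHC class II genes, was the only one to stand lower past 1.5-fold, with 105 UMIs at day 14 and 112 at day 0, giving a ratio of 0.609 (0.462 to 0.802).

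Of 31 type I interferon stimulated genes measured, 10 were higher and 0 lower, beside the 5.34% and 10.6% of all genes. Their median log2 ratio was 0.34. Parp9 and Dtx3l, which act together as an ADP-ribosylation complex, had ratios of 2.76 (1.26 to 6.91) and 2.60 (1.17 to 6.53) from 34 and 32 UMIs at day 14 and 8 each at day 0. The summed level of that list was 1.04 times (0.999 to 1.08) as high, at 3897 CPM at day 14 and 3759 CPM at day 0. Ly6e, a GPI-anchored surface protein and its most abundant member, stood at 1685 CPM at day 14 and 1902 CPM at day 0. Psmb9 and Tap1, which make and transport peptides for MHC class I, were the 2 of 22 class I genes past 1.5-fold, at 1.56 (1.23 to 2.00) and 1.51 (1.14 to 2.02). B2m, the class I light chain, had a ratio of 1.06 (1.01 to 1.10).

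The interferon-gamma list was uneven over the day 14 cells, as were several other lists. With each cell thinned to 1000 UMIs, 41 of 655 day 14 cells (6.26%, 4.53 to 8.40) and 2 of 443 day 0 cells (0.451%, 0.0547 to 1.62) held at least 5 UMIs of the list. The variance over the mean was 1.62 at day 14 and 0.993 at day 0, where a value of 1 is that of counting alone. The 0 Ighd cells gave 1.66 at day 14 and 1.24 at day 0. In IgD-high cells the type I interferon list gave 1.51 at day 14 and 1.47 at day 0, and the trafficking list 1.47 and 1.49. The immediate early list gave 3.44 and 2.97, while the germinal center and plasma lists gave 1.10 and 1.15 at day 14. A value over 1 was thus not particular to the interferon-gamma list.

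**Figure D2:**
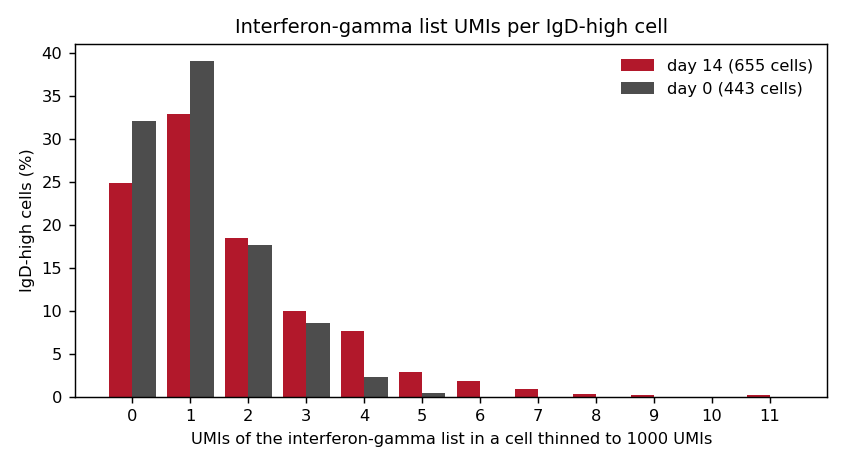
Share of IgD-high cells (%) by the number of UMIs of the interferon-gamma list in a cell thinned to 1000 UMIs, for 655 day 14 and 443 day 0 cells. The day 14 cells reach 11 UMIs and the day 0 cells 5.

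Promoters of 3 of the interferon list genes named above are shown, since they are among the genes with the highest lower bounds. Windows of 300 bases (250 before to 50 after the start) were read from RefSeq, build GRCm38.p6, for 10 of the 11 described genes with the highest lower bounds, all but Zbp1. Capitals mark the gamma-activated site TTCNNNGAA, which reads the same on both strands, and the interferon-stimulated response element core, TTTC followed after any 2 bases by a second TTTC, was searched on both strands.
Serpina3g (chr12:104235897-104236196, plus strand): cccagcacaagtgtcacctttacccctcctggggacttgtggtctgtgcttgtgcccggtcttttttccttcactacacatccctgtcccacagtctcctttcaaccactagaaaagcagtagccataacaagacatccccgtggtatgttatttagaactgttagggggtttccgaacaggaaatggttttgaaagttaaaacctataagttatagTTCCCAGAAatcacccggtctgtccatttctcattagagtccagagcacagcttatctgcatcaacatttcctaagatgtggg
Ifi47 (chr11:49076337-49076636, plus strand): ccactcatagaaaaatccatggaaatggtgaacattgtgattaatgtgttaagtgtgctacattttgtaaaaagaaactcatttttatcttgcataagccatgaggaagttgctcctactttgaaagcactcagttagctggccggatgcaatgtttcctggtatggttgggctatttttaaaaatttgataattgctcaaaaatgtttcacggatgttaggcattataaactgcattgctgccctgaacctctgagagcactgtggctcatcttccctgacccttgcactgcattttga
Irf1 (chr11:53769764-53770063, plus strand): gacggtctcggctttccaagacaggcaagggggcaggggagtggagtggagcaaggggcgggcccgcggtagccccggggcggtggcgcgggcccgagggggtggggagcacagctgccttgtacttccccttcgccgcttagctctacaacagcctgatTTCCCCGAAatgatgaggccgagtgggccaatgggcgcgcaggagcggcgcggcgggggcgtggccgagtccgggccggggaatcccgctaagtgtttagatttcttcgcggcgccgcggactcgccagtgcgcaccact
The gamma-activated site letters occurred once in the Serpina3g and once in the Irf1 window and not in that of Ifi47. Of the 10 windows read, 3 held them, the third being that of Pkib, which is on neither interferon list, and they are found in 8.3% of 32851 windows. The response element core was in none of the 10 windows and is found in 3.44% of all windows. These matches describe the letters only.

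Fcer2a (chromosome 8, 3681737 to 3694175, mm10) was the lower gene with the most UMIs among the 12. Of the day 14 cells 240 held it, with 370 UMIs, against 257 of the day 0 cells with 468. That is 195 CPM (176 to 216) at day 14 and 380 CPM (347 to 416) at day 0. The ratio was 0.514 (0.447 to 0.590). In cells thinned to 1000 UMIs, 16.6% of day 14 cells (13.9 to 19.7) and 30.0% of day 0 cells (25.8 to 34.5) held it. In cells with 0 Ighd UMIs its ratio was 0.639 (0.577 to 0.708).

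Fcer2a was lower at day 14 both in cells with more and in cells with fewer interferon-gamma list transcripts, a split added after the values were seen. Among thinned cells with at least 3 UMIs of that list it stood at 154 CPM (97.9 to 232) in 156 day 14 cells and 481 CPM (305 to 722) in 50 day 0 cells. Among those with 0 to 2 UMIs it stood at 212 CPM (173 to 257) in 499 day 14 cells and 404 CPM (343 to 474) in 393 day 0 cells.

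The naive follicular list as a whole stayed within 1.5-fold for 20 of its 23 measured genes, with 0 higher and 3 lower. Its median log2 ratio was -0.24. Of all 7290 genes measured that way, 5.34% were higher and 10.6% lower, with a median of -0.09. Beside Fcer2a, the lower genes of the list were Cd55 and Cxcr5. Cd55, a complement regulator, stood at 0.650 (0.548 to 0.771), and Cxcr5, the follicle homing receptor, at 0.657 (0.530 to 0.815). Fcer2a alone stayed past 1.5-fold with TMM or median-of-ratios factors. Ccr7 had 727 CPM at day 14 and 1078 CPM at day 0, giving a ratio of 0.674 (0.625 to 0.727), just inside 1.5-fold, and Klf2, a transcription factor of naive lymphocyte recirculation, 556 CPM at day 14 and 753 CPM at day 0, giving a ratio of 0.738 (0.675 to 0.807). Ms4a1 hardly differed, at 733 CPM at day 14 and 744 CPM at day 0, giving a ratio of 0.985 (0.905 to 1.07). Cr2, complement receptor 2, had a ratio of 1.10 (0.859 to 1.40). Fcmr, the IgM Fc receptor, stood at 0.785 (0.717 to 0.860) and Bank1, a B cell scaffold protein, at 1.19 (1.05 to 1.35).

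Of the other lower genes, Crisp3, a cysteine-rich secretory protein, had 34 UMIs at day 14 and 79 at day 0, giving a ratio of 0.280 (0.181 to 0.423). Hist1h1c, a linker histone, had 102 UMIs at day 14 and 193 at day 0, giving a ratio of 0.344 (0.268 to 0.439). Cnr2, the cannabinoid receptor of immune cells, had 40 UMIs at day 14 and 68 at day 0, giving a ratio of 0.382 (0.252 to 0.573). Lower too were Klf4, a factor that restrains B cell proliferation, at 0.406 (0.274 to 0.598), Bhlhe40, a transcriptional repressor, at 0.433 (0.292 to 0.638), and Cd40, the receptor of T cell help, at 0.490 (0.342 to 0.697). Dusp4, a phosphatase of MAP kinases, stood at 0.502 (0.361 to 0.697), Tceal9, of the TCEAL family, at 0.493 (0.389 to 0.624), and Tyrobp, an adaptor of activating receptors, at 0.521 (0.378 to 0.717). The 2 remaining genes, AY036118 and AC125149.3, had ratios of 0.400 and 0.495. All 12 stayed past 1.5-fold without the 5 cells with most UMIs of each library, as did 9 of the 10 described genes that were past 1.5-fold higher, all but Hspa1a.

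Lists of homing, survival and activation had medians below that of all genes at day 14, while their lower counts are to be read against the 10.6% of all genes measured that way. In the trafficking list 6 of 25 genes were lower and 0 higher, with a median log2 ratio of -0.28, among them Itgb7, a subunit of the gut homing integrin, at 0.626 (0.455 to 0.862) and Gpr174, a lysophosphatidylserine receptor, at 0.584 (0.395 to 0.861). In the survival and BAFF receptor list 4 of 23 were lower and 0 higher, with a median of -0.30, among them Tnfrsf13b, the TACI receptor, at 0.556 (0.428 to 0.721) and Bcl2, an apoptosis inhibitor, at 0.577 (0.450 to 0.738). In the immediate early list 4 of 30 were lower and 0 higher, with a median of -0.37. Cd83, an activation marker, had 757 CPM at day 14 and 1104 CPM at day 0, giving a ratio of 0.685 (0.636 to 0.739), in an NF-kB list with 2 of 22 lower and a median of -0.30. With TMM factors the trafficking list had 4 lower and 1 higher, the survival list 4 lower, the immediate early list 3 lower and 1 higher, and the NF-kB list 0 lower.

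The next 2 lists are read beside 5.34% higher and 10.6% lower of all genes measured that way. In the B cell receptor list 3 of 33 were lower and 0 higher with a median of -0.12. Cd79a, which carries the receptor's signal, had a ratio of 0.993 (0.947 to 1.04), and Blk, a Src-family kinase, 0.629 (0.485 to 0.816). In the class II and costimulation list 3 of 20 were lower and 1 higher, with a median of -0.18, and Cd74, the invariant chain, at 25873 CPM at day 14 and 27654 CPM at day 0, had a ratio of 0.936 (0.923 to 0.949). With TMM factors the medians of these 2 lists were -0.02 and -0.07.

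Some genes of other B cell kinds differed as well, to be read beside 5.34% higher and 10.6% lower of all genes measured that way. In the marginal zone list 4 of 15 genes were higher and 1 lower, with a median log2 ratio of 0.13, among them Cd9, a tetraspanin, with 50 UMIs at day 14 and 14 at day 0. Plac8, its most abundant gene, had a ratio of 1.28 (1.19 to 1.38). In the B-1 list 4 of 9 were lower and 1 higher, among them S100a6, a calcium-binding protein, with 21 UMIs at day 14 and 52 at day 0, and Bhlhe41, a transcriptional repressor of B-1 cells, with 14 at day 14 and 26 at day 0. In the cell cycle list 4 of 17 were higher and 1 lower, but 40 of the 48 day 14 UMIs of Pclaf, a replication factor, lay in 1 cell.

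Against all cells with 0 Ighd UMIs of their own library, more genes were lower than higher in IgD-high cells. Both libraries gave 4314 genes that reached 100 UMIs over the 2 sets. Of these, 2 (0.0464%) were past 1.5-fold higher and 71 (1.65%) past 1.5-fold lower in each library. The lower count depended on the choice of 0 Ighd cells and was 4 of 3574 genes against those with IgM. Against all 0 Ighd cells, Fcmr was highest by its lower bound, with ratios of 1.55 (1.43 to 1.68) at day 14 and 1.61 (1.48 to 1.75) at day 0. Cd79b, the partner of Cd79a, had 1.38 (1.29 to 1.46) at day 14 and 1.26 (1.18 to 1.36) at day 0, and Tsc22d1, a transcriptional regulator, 1.59 (1.32 to 1.92) and 1.49 (1.24 to 1.80). The other 9 genes with the highest lower bounds were Apobec3, Hhex, Dkc1, Gimap1, Ifi27l2a, Eef1g, Trim12a, Cd72 and Cd38, whose ratios ran from 1.16 for Eef1g to 1.48 for Dkc1 at day 14.

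The markers named for the set were uneven in this comparison. Fcer2a was 1.23 times (1.08 to 1.40) the 0 Ighd level at day 14 and 1.53 times (1.37 to 1.72) at day 0. Ccr7 was 1.07 times (0.9997 to 1.14) at day 14 and 1.29 times (1.21 to 1.38) at day 0. Ms4a1 was level at 1.005 (0.943 to 1.07) and 0.976 (0.904 to 1.05), and Klf2 was lower at 0.829 (0.771 to 0.890) and 0.813 (0.754 to 0.875). Over the naive follicular list 15 of 23 genes had ratios over 1 in both libraries and 2 under 1 in both. The shares of all genes over or under 1 in both were not counted, so these counts cannot be set against them. Of the list 1 gene was past 1.5-fold higher in both, beside 0.433% of the 8084 genes with at least 20 UMIs in each library.

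**Figure D3:**
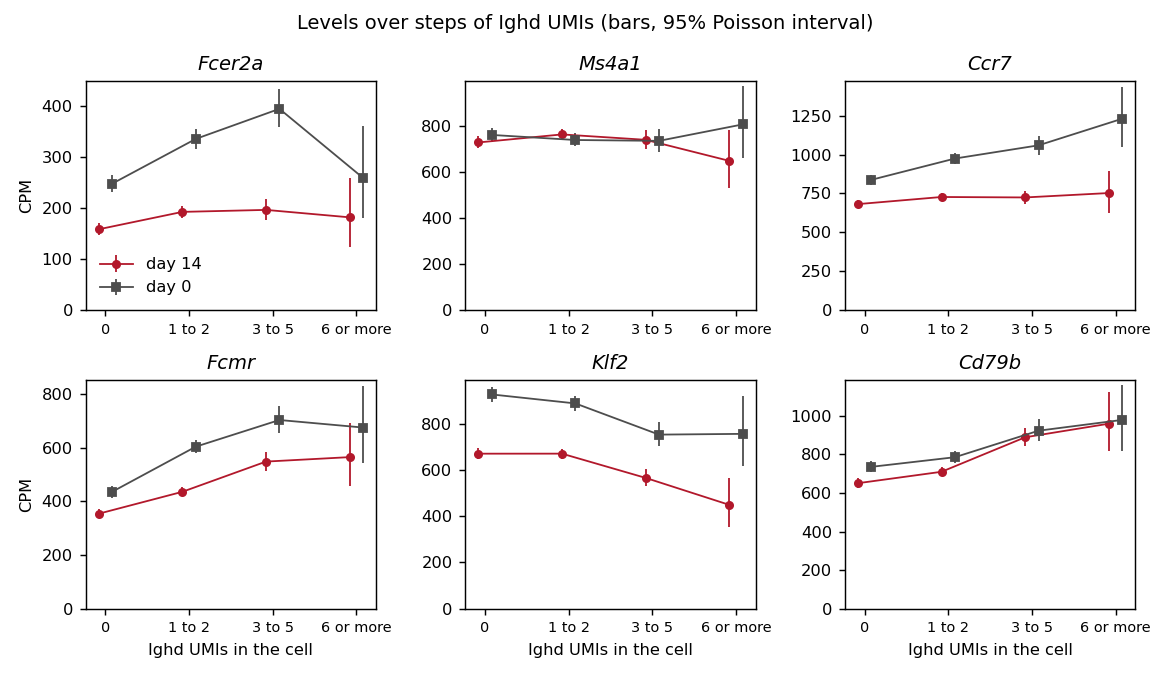
CPM of 6 genes in cells with 0, 1 to 2, 3 to 5 and 6 or more Ighd UMIs at day 14 (circles) and day 0 (squares), with 95% Poisson intervals. Fcer2a is lower at day 14 than at day 0 in the first 3 steps, while Ms4a1 is about level.

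Over the steps of Ighd, Fcmr stood at 354, 435, 548 and 564 CPM at day 14 in cells with 0, 1 to 2, 3 to 5 and 6 or more UMIs, and at 435, 603, 703 and 675 CPM at day 0. Cd79b stood at 650, 710, 888 and 959 CPM at day 14 and 735, 785, 922 and 978 CPM at day 0. Klf2 went down, from 670 CPM at 0 Ighd UMIs to 449 CPM (353 to 564) at 6 or more at day 14, and from 927 CPM to 756 CPM (617 to 918) at day 0. Only 41 day 14 and 35 day 0 cells had 6 or more Ighd UMIs, so the last step has wide intervals.

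Of the 71 lower genes, 13 are on the plasma cell list. Ccr10, the gut homing receptor of IgA plasma cells, had 0 UMIs in the IgD-high cells of either library, against 112 UMIs in 0 Ighd cells at day 14 and 107 at day 0, which is at least 16.4-fold and at least 13.3-fold lower, with 0 set to a floor of 3 counts. Tnfrsf17, the BCMA receptor of plasma cells, also had 0 UMIs in both, against 100 and 107. Slpi, a secreted protease inhibitor, had 4 UMIs against 1079 at day 14 and 1 against 313 at day 0. Ccr10, Tnfrsf17 and Slpi reached 100 UMIs only through the 0 Ighd cells. Plasma cells lose IgD, so the rule placed them among the 0 Ighd cells. The lower values of plasma cell genes follow from that choice and are given as a description only. Txndc5 and Edem1, which fold and clear proteins in the endoplasmic reticulum, had day 14 ratios of 0.245 and 0.168 and day 0 ratios of 0.326 and 0.266. Of 18 measured plasma cell genes 15 were lower in both libraries, beside 3.13% of all 8084 genes measured with at least 20 UMIs in the 2 sets of each library, with a median log2 ratio of -1.49 at day 14 and -1.32 at day 0. Without cells of over 2 times the median UMIs of their set, the day 14 median of the list was 0.052.

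Few cells held those transcripts. The 26 day 14 and 24 day 0 cells with 20% or more immunoglobulin UMIs, 1.44% and 1.80% of the 0 Ighd cells, held 96.4% and 91.6% of the Ccr10 UMIs, 89.2% and 97.4% of those of Slpi and 66.0% and 63.8% of those of Txndc5. Set against the 0 Ighd cells with IgM only, 1 of 3574 genes was past 1.5-fold higher in both libraries, Dkc1, a pseudouridine synthase of ribosomal RNA, and 4 were lower. All 4 were among the 71 found against all 0 Ighd cells, and none was on the plasma cell list. They were Dusp1, Egr1, Nr4a2 and Hilpda, the first 3 of them immediate early genes, named after their values were seen. Neither of the 2 genes past 1.5-fold higher against all 0 Ighd cells was past it here. Fcmr, one of them, had ratios of 1.38 (1.27 to 1.501) at day 14 and 1.36 (1.24 to 1.48) at day 0 against these cells, and Cd79b 1.33 (1.25 to 1.42) and 1.16 (1.08 to 1.25).

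**Figure D4:**
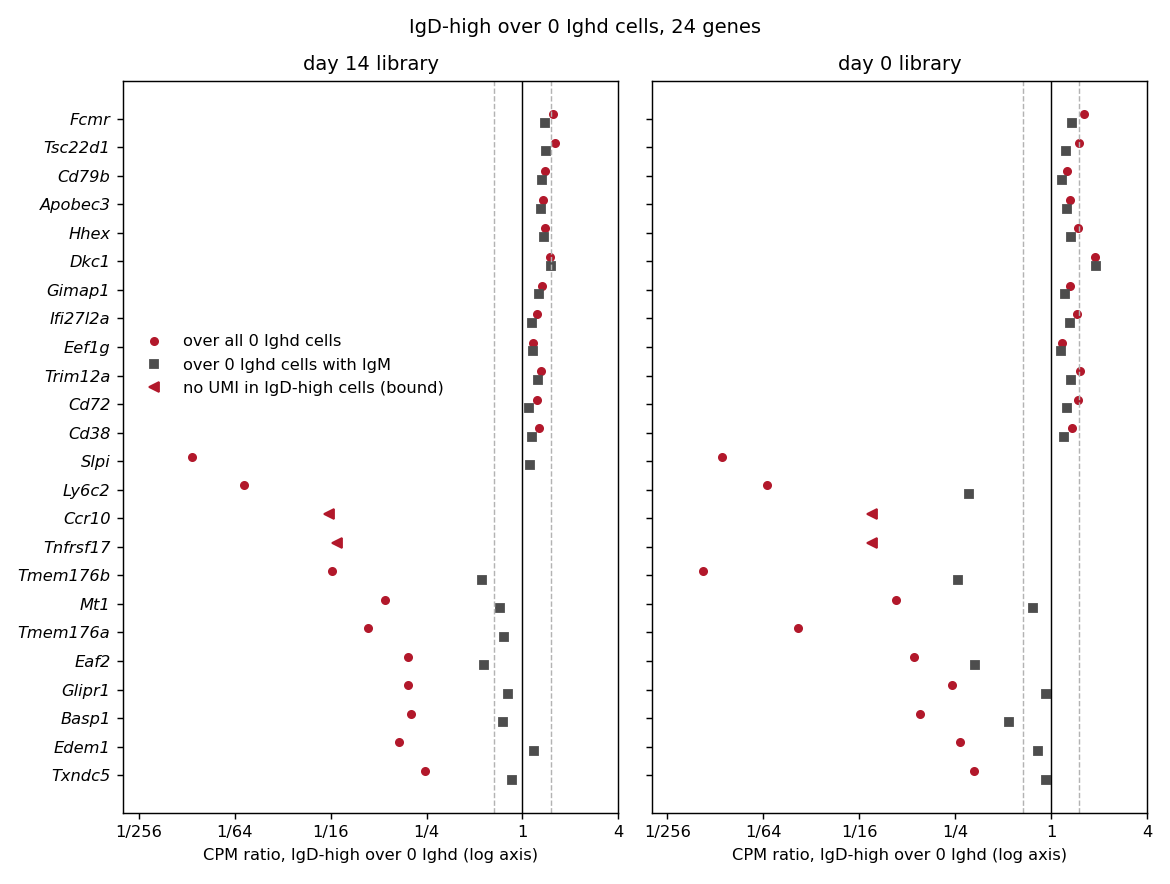
CPM ratio (log axis) of IgD-high cells over all 0 Ighd cells (circles) and over 0 Ighd cells with IgM (squares) for 24 genes in each library, with dashed lines at 1.5-fold either way and triangles for bounds where IgD-high cells held no UMI. The lower 12 genes lie far below 1 against all 0 Ighd cells and closer to 1 against those with IgM where both ratios are drawn, and a ratio is left out where both sets held 3 UMIs or fewer.

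Other lists also held genes that were lower in IgD-high cells than in all 0 Ighd cells. Of 11 B-1 genes 6 were lower in both libraries, of 12 germinal center genes 5 and of 31 immediate early genes 7, beside the 3.13% of all genes. Lgals1, a galectin on the B-1 list, changed with the choice of 0 Ighd cells. At day 14 its ratio was 0.462 against all of them and 1.64 (1.16 to 2.31) against those with IgM. At day 0 the values were 0.309 and 0.942 (0.668 to 1.32). At day 14, 62.8% of its UMIs in 0 Ighd cells lay in the 26 cells rich in immunoglobulin. Egr1 had ratios of 0.417 (0.290 to 0.586) at day 14 and 0.523 (0.351 to 0.759) at day 0 against all 0 Ighd cells. Pim1, a survival kinase, had 0.601 (0.538 to 0.670) and 0.554 (0.487 to 0.629). Set against 0 Ighd cells with IgM, Egr1 had 0.431 (0.297 to 0.614) and 0.502 (0.333 to 0.739). Pim1 had 0.662 (0.590 to 0.742) and 0.727 (0.633 to 0.834) there. Cd80, a costimulatory ligand of memory B cells, had 0 UMIs in IgD-high cells of both libraries, against 56 UMIs in 0 Ighd cells at day 14 and 57 at day 0. The interferon-gamma list did not set the cells apart, with summed levels 1.02 times (0.980 to 1.06) the 0 Ighd level at day 14 and 0.988 times (0.931 to 1.05) at day 0.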

How the data were processed

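The authors deposited raw UMI counts of every gene in every barcode. Per the file headers these come from Cell Ranger 3.0.1, and the submitters' processing notes name the build mm10 and Seurat 3.0. The sources used here give no aligner settings, annotation or filter on cells. Natural log tables, also deposited, hold ln(1 + UMIs × 10000 / total UMIs of the cell). All 9365232 day 14 and 6566840 day 0 values of 1996 genes compared matched the counts within a relative tolerance of 0.001. Their headers gave the cells, and 88 of 4780 day 14 and 86 of 3376 day 0 barcodes are not in them.

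Counts were summed per library over the members and given as CPM without immunoglobulin and mitochondrial genes (Python 3.11.15, numpy 2.4.6, scipy 1.17.1, pandas 2.3.3). Ratios have exact conditional, sums exact Poisson and shares exact Clopper-Pearson 95% intervals. They cover counting error only, and 1 library per group allowed no test. A sum of 0 was set to 3 counts, and no ratio was given where both sums were 3 or fewer. Thinning drew 1000 UMIs per cell and left out 1 shallower day 0 member. No doublet caller was run. Cells of over 2 times the median UMIs of their set were left out in an alternative instead.

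Genes were named by rule. For each ratio these were the 12 whose lower bounds were highest and the 12 whose upper bounds were lowest, without immunoglobulin, mitochondrial, ribosomal protein and predicted genes, and from the 26 lists all naive follicular genes and, of each other list, the most abundant gene and up to 3 that differed most. Results of 2 genes that the rule names are not reported here. Members and lists were chosen with earlier results of these data known. The split of cells by interferon-gamma list UMIs, the ratios without the 5 cells with most UMIs, and the alternative without shared barcodes were added after seeing the data. TMM factors came from edgeR 4.0.16 and median-of-ratios factors from DESeq2 1.42.0 (R 4.3.3), used for scaling only. The ratio step was tested on simulated data. Gene positions are from GENCODE M21 and promoter windows from RefSeq. The other alternatives were the Ighd limit, the immunoglobulin limit, the count minimum, per-cell means, a UMI window and narrower 0 Ighd cells.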

Additional observations from a re-analysis of the deposited data

Results flagged for a closer look

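Hspa1a, the inducible HSP70 chaperone, differed in direction between the cell sets. Its log2 ratio of day 14 over day 0 was 1.99 in IgD-high cells, while in cells with 0 Ighd UMIs the ratio was 0.624 (0.546 to 0.712), and the difference was not tested. Of the 153 day 14 UMIs in IgD-high cells, 135 lay in 5 cells.

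Ighd UMIs also appeared in barcodes that the authors' cell table leaves out and that carry T cell receptor complex transcripts. They were found in 3 of 46 such barcodes at day 14, where 1 barcode held 3 or more, and in 6 of 56 at day 0. These shares were not tested against 0. Whether these barcodes hold free RNA or a B cell beside a T cell was not tested.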

How the results depend on the processing

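Counts of genes past 1.5-fold moved with depth, scaling and the count minimum. At day 14 over day 0, 32 were higher and 111 lower of 3264 genes. With 2 or more Ighd UMIs they were 49 and 163 of 5138, and with 5 or more 10 and 37 of 688. TMM factors gave 59 and 60 and median-of-ratios factors 56 and 61, both of 3264. Cells thinned to 1000 UMIs gave 19 and 37 of 1189. The counts were 118 and 321 of 5078 genes from 50 UMIs and 11 and 28 of 1781 from 200 UMIs. From 1 UMI they were 981 and 1457 of 9388. The number of genes counted thus moved with the setting too. For IgD-high over 0 Ighd cells, 2 were higher and 71 lower of 4314 genes. These became 12 and 119 of 3722 with 5 or more Ighd UMIs, and 0 and 6 of 1958 thinned. They were 1 and 24 of 4177 against 0 Ighd cells with under 20% immunoglobulin UMIs, and 1 and 4 of 3574 against those with IgM. In cells with 1500 to 3500 UMIs they were 1 and 14 of 3362. From 50 UMIs they were 6 and 132 of 6130, from 200 UMIs 1 and 42 of 2637, and from 1 UMI 148 and 433 of 9755. With all UMIs in the total 6 of 4314 were higher, without high-UMI cells 19 of 3788 were lower, and with per-cell means 40 of 4312 were lower. The share of cells in the set was 31.6% at day 14 and 29.4% at day 0 with 2 or more Ighd UMIs, 2.05% and 2.61% with 5 or more, and 2.10% and 1.90% with thinned cells, and at day 14 it was 13.0% without high-UMI cells. The growth and ribosome biogenesis median of day 14 over day 0, -0.07, turned to 0.033 with 2 or more Ighd UMIs, 0.036 with TMM, 0.030 with median-of-ratios and 0.022 without high-UMI cells. Against 0 Ighd cells, 5 or more Ighd UMIs turned the day 14 naive follicular median to -0.0051 and the day 0 log2 ratio of Egr1 to 0.24. The day 14 plasma median turned to 0.052 without high-UMI cells, 0.052 against cells with IgM and 0.087 in the UMI window, which also turned the day 14 trafficking median to 0.031 and the day 0 cell cycle median to 0.085. Plasma list genes turned likewise at day 14: Mzb1 to 0.058 without high-UMI cells, 0.064 against cells with IgM and 0.11 in the UMI window. Edem1 turned to 0.27, 0.24 and 0.25 in the same order, and Ly6c2 to 0.12 with the immunoglobulin limit. Of genes not on that list, Slpi turned to 0.17 against cells with IgM and Tmem176a to 0.30 in the UMI window. The B-1 gene Lgals1 turned at day 14 to 0.40 without high-UMI cells, 0.25 with the immunoglobulin limit, 0.71 against cells with IgM and 0.33 in the UMI window. At day 0, Tmem176a turned to 0.41 without high-UMI cells and Txndc5 to 0.033 in the UMI window. The cause of these changes was not tested, beside the cells that each setting removes. Of the values of named genes in the day comparison none turned, 746 stayed within their counting interval and 53 left it. Leaving out a replicate was not possible with 1 library per group. No paired analysis was possible because each group holds 1 library. Genes under 100 UMIs can miss a 1.5-fold difference at this depth.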
